A study of Homo sapiens with 6 samples.

Results

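The genes described here are 10 regulators of chromatin that are recurrently mutated in B-cell lymphoma: KMT2D, KMT2C, CREBBP, EP300, EZH2, ARID1A, TET2, SETD2, MEF2B and SMARCA4. They were taken by symbol from the 20667 symbols of each RNA-seq library, all 10 were found, and all 10 passed the filter on low values that left 10526 genes for testing. The study silenced ROCK2, a serine-threonine kinase that acts downstream of RhoA, in U2932 cells, an established cell line of the activated B-cell type of diffuse large B-cell lymphoma (DLBCL), and asked which transcripts depended on it. The comparison is between 3 libraries of cells stably infected with a lentiviral ROCK2 shRNA (ROCK2 KD) and 3 of cells infected with a scrambled shRNA (Scr), numbered 1 to 3 in both groups. Both lines carried tGFP and puromycin-resistance cassettes and were sorted and selected with puromycin. A single ROCK2 shRNA was used, so effects of the knockdown and of other targets of this hairpin cannot be told apart. The labels do not say whether replicates were separate cultures or infections, so the p values measure the spread between these libraries, which may be technical.

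These genes place or read the marks that open or close enhancers and promoters. KMT2D and KMT2C methylate histone H3 at lysine 4 of enhancers, CREBBP and EP300 acetylate histones there, and the SWI/SNF remodeler, with the ATPase SMARCA4 and the subunit ARID1A, moves nucleosomes. EZH2, the catalytic subunit of PRC2, writes the repressive methylation of H3 lysine 27, SETD2 trimethylates H3 lysine 36 along transcribed genes, and TET2 oxidizes 5-methylcytosine. MEF2B is a DNA-binding transcription factor of germinal center B-cells that recruits such enzymes to its targets. In lymphoma, KMT2D and CREBBP mostly lose function while EZH2 is mutated to a more active form. The values here are transcript levels only, and the U2932 genotype of these genes was not analysed here.

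No difference between ROCK2 KD and Scr beyond the spread between replicates was detected for any of the 10 transcripts. All p values of single genes are from limma, blocked by replicate number unless said otherwise. At an adjusted p of less than 0.05 it called 0 of the 10 members and 0 of all 10526 genes (0%), and at an unadjusted p of less than 0.05 it called 0 members and 576 genes (5.47%). The paper did report differentially expressed genes at a false discovery rate under 0.05. It tested counts after ComBat, so the absence of calls here holds only for the present fit of FPKM. Fitted without the block, limma again called 0 members at either threshold, against 0% of all genes at the adjusted and 0.276% at the unadjusted p. Log2 fold changes ran from -0.21 for SETD2 to 0.14 for TET2, with a median of -0.036 over the members and -0.0019 over all genes tested, and 4 of the 10 were above 0, against 49.4% of all genes (7 of the 10 after a correction for length and GC). Their adjusted p values ran from 0.958 to 0.997. The 95% confidence intervals reached at most from -0.53 to 0.46 on the log2 scale, which is a ratio of ROCK2 KD to Scr between 0.691 and 1.38. Scaled FPKM are the deposited FPKM, fragments normalized to transcript length and library size, adjusted by a factor for each library, and fold changes are on the log2(scaled FPKM + 1) scale, which understates the change of low genes such as TET2.

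ROCK2 stood at a scaled FPKM of 3.78, 4.47 and 1.09 in ROCK2 KD replicates 1, 2 and 3 and of 5.95, 5.98 and 5.08 in the Scr replicates. The groups did not overlap, which held for 223 of all genes tested (2.12%), but the depth of the knockdown varied between replicates, with log2 differences of -0.54, -0.35 and -1.54. Its log2 fold change was -0.81 (standard error 0.22, unadjusted p = 0.00856, adjusted p = 0.794). ROCK2 itself thus missed the threshold over all genes, and without replicate 3 its log2 fold change was -0.45.

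The hairpin is shown because it is the agent that sets the groups apart. Beside it is the single match to its seed found in the longest coding transcripts of the 10 genes, where other transcripts were not searched. The 21-base ROCK2 target had 1 exact match on chromosome 2 of GRCh37, at chr2:11322581-11322601 on the minus strand, in the 3′ UTR of ROCK2. The capitals in both lines mark CTATTAT, the 7 bases that pair with bases 2 to 8 of the strand complementary to the target. The TET2 site lies in its 3′ UTR on the plus strand, at chr4:106197950-106197970, where 10 of 21 bases equal those of the target.

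ROCK2 target: ccttgatgtctgtCTATTATt

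TET2 site: ttaaacactggttCTATTATt

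Of the 10 members, TET2 was the only one whose longest coding transcript held this seed site, searched on the sense strand, against 17.4% of the 9295 tested genes with a coding transcript and 39.3% of the 1210 with a transcript of at least 7000 bases. The longest run of bases shared with the target was 9 in TET2 and 5 to 8 in the others, beside a median of 7 over all those genes and of 8 over those of at least 7000 bases. A match is a description of letters, and TET2 had a positive log2 fold change of 0.14 that did not pass the test.

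U2932 cells expressed the members over a wide range of levels, which FPKM, being per length, allow to be set side by side. In Scr libraries the mean scaled FPKM was 132 ± 67.7 (SD, n = 3) for MEF2B, 51.4 ± 13.5 for EZH2 and 37.7 ± 15.9 for SMARCA4. MEF2B thus stood above 96.5% of the genes tested and EZH2 above 89.1%. SETD2, ARID1A and EP300 formed a middle group at 15.3 ± 3.12, 14.2 ± 2.59 and 12.4 ± 1.87 (SD, n = 3). CREBBP, KMT2C and KMT2D followed at 5.84 ± 0.712, 5.46 ± 0.749 and 4.85 ± 1.01, and TET2 was lowest at 2.76 ± 0.318 (SD, n = 3), above 16.4% of the genes tested. Some steps of this order were the same in every library and others were not: SMARCA4 exceeded SETD2, ARID1A exceeded EP300, EP300 exceeded CREBBP, KMT2C exceeded KMT2D and KMT2D exceeded TET2 in 6 of 6 libraries, where the level of KMT2C is uncertain because its reads can be split with near-identical copies. SETD2 exceeded ARID1A in only 2 of 6 libraries, CREBBP exceeded KMT2C in 3, EZH2 exceeded SMARCA4 in 4 and MEF2B exceeded EZH2 in 5, so the order of these neighbors varied between libraries.

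**Figure D1:**
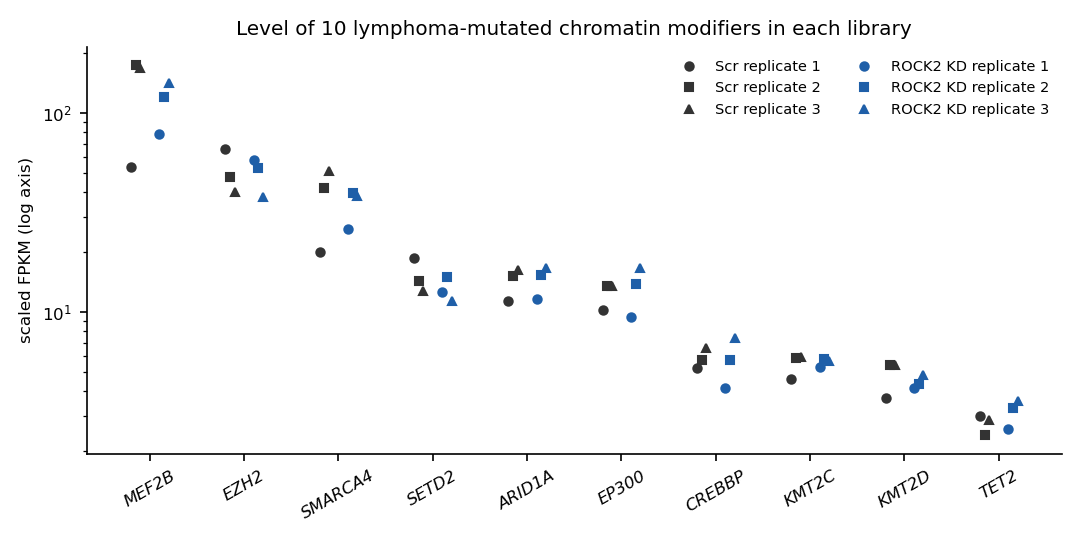
Scaled FPKM of the 10 genes (log axis) in each of 6 libraries, ordered by their mean in Scr, with symbols for replicate numbers and colors for Scr (dark) and ROCK2 KD (blue). Levels run from MEF2B, at a mean of 132 in Scr, to TET2 at 2.76, and for every gene the ROCK2 KD symbols overlap the range of the Scr symbols.

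For the methyltransferases of enhancer H3 lysine 4, the groups overlapped. KMT2D, on chromosome 12 from 49412758 to 49454577 of GRCh37, was measured at 4.15, 4.36 and 4.80 scaled FPKM in ROCK2 KD replicates 1, 2 and 3 and at 3.69, 5.43 and 5.44 in Scr. It was higher in ROCK2 KD in replicate 1 and lower in the others, with a log2 fold change of -0.092 (standard error 0.12, 95% interval -0.39 to 0.20). KMT2C, on chromosome 7 from 151832007 to 152133729, was measured at 5.28, 5.79 and 5.68 in ROCK2 KD and at 4.59, 5.87 and 5.91 in Scr, a log2 fold change of 0.033 (standard error 0.11, 95% interval -0.23 to 0.30). Of the 6 values of each gene, the lowest was that of Scr replicate 1. Stretches of KMT2C have near-identical copies elsewhere in the genome between which reads can be split, so its value is uncertain. Nextera libraries do not mark strand, so reads of KMT2D and of the overlapping antisense gene DDN-AS1 cannot be told apart, nor those of KMT2C and FABP5P3, which was listed at an FPKM of 0.0965 to 0.808. EP300 and ARID1A are each also overlapped by 1 unnamed antisense gene, and KMT2D by 1 unnamed gene of the same strand, and the same limit holds for them.

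Among the acetyltransferases, EP300 was the more abundant in every library. CREBBP, on chromosome 16 from 3775055 to 3930714, was measured at 4.16, 5.73 and 7.42 in ROCK2 KD replicates 1, 2 and 3 and at 5.20, 5.72 and 6.61 in Scr. EP300, on chromosome 22 from 41488596 to 41576081, was measured at 9.45, 13.8 and 16.7 in ROCK2 KD and at 10.2, 13.5 and 13.5 in Scr. Both were lower in ROCK2 KD in replicate 1, close to level in replicate 2 (log2 differences of 0.0024 and 0.031) and higher in replicate 3 (0.15 and 0.29). Their log2 fold changes were -0.039 for CREBBP (standard error 0.12, 95% interval -0.33 to 0.25) and 0.071 for EP300 (standard error 0.12, 95% interval -0.21 to 0.35).

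EZH2, on chromosome 7 from 148504349 to 148581413, was measured at 58.1, 53.1 and 37.7 in ROCK2 KD replicates 1, 2 and 3 and at 66.3, 47.6 and 40.1 in Scr. In these scaled values replicate 1 was high and replicate 3 low in both groups. In the deposited FPKM replicate 2 was the highest in both groups, at 63.6 in ROCK2 KD and 57.4 in Scr. The log2 fold change of EZH2 was -0.041 (standard error 0.11, 95% interval -0.29 to 0.21). For the SWI/SNF subunits, ARID1A, on chromosome 1 from 27019727 to 27108595, was measured at 11.6, 15.3 and 16.7 in ROCK2 KD and at 11.3, 15.1 and 16.3 in Scr. SMARCA4, on chromosome 19 from 11071608 to 11190102, was measured at 26.2, 39.9 and 38.4 in ROCK2 KD and at 20.1, 41.9 and 51.0 in Scr. ARID1A was the most evenly matched of the 10 genes within replicates, with log2 differences of 0.036, 0.015 and 0.036, averaging 0.029 (standard error 0.10, 95% interval -0.21 to 0.26). SMARCA4 moved in opposite ways, with log2 differences of 0.37, -0.07 and -0.40, and averaged -0.033 (standard error 0.15, 95% interval -0.39 to 0.33).

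TET2, on chromosome 4 from 106067032 to 106200973, was measured at 2.59, 3.31 and 3.58 in ROCK2 KD replicates 1, 2 and 3 and at 3.02, 2.41 and 2.87 in Scr. It was lower in ROCK2 KD in replicate 1 but higher in the other replicates. Its log2 fold change was the highest of the members, 0.14 (standard error 0.14, 95% interval -0.18 to 0.46, unadjusted p = 0.341). SETD2, on chromosome 3 from 47057918 to 47205603, was measured at 12.6, 15.0 and 11.3 in ROCK2 KD and at 18.8, 14.3 and 12.7 in Scr. It had the lowest log2 fold change, -0.21 (standard error 0.14, 95% interval -0.53 to 0.11, unadjusted p = 0.168), of which most came from replicate 1, at a log2 difference of -0.54. A log2 fold change farther from 0 than that of SETD2 was found for 15.1% of all genes tested. Without replicate 1 the log2 fold change of SETD2 was -0.047.

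MEF2B, on chromosome 19 from 19256376 to 19302940, had the highest mean of the members in Scr and varied most between libraries. It was measured at 78.8, 120 and 142 scaled FPKM in ROCK2 KD replicates 1, 2 and 3 and at 53.9, 173 and 169 in Scr. Replicate 1 was the lowest in both groups, and ROCK2 KD was higher than Scr in replicate 1 and lower in replicates 2 and 3, with log2 differences of 0.54, -0.53 and -0.25. The log2 fold change was -0.077 (standard error 0.19, 95% interval -0.53 to 0.38). Without replicate 1 it was -0.39 (unadjusted p = 0.0265, adjusted p = 0.545, in a fit where 8.11% of all genes had an unadjusted p below 0.05), and without replicate 2 it was 0.15. The symbol overlaps 2 others on the same strand, MEF2BNB, listed at an FPKM of 7.48 to 18.9, and the read-through transcript MEF2BNB-MEF2B, at 1.78 to 3.04, between which fragments can be split.

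**Figure D2:**
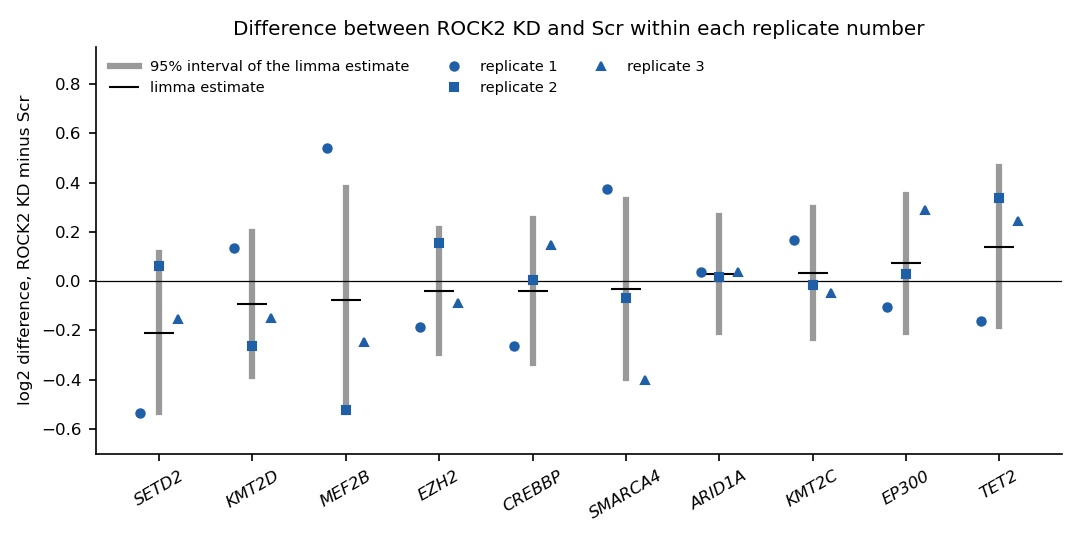
Log2 difference between ROCK2 KD and Scr for each gene within replicates 1 (circles), 2 (squares) and 3 (triangles), with the limma estimate (bar) and its 95% confidence interval (grey). All 10 intervals contain 0, and SETD2, MEF2B and SMARCA4 show the widest scatter between replicates.

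In each replicate taken alone, members lay on both sides of 0. In ROCK2 KD, 5 of 10 were higher in replicate 1 (51.9% of all genes tested), 6 of 10 in replicate 2 (50.2%) and 4 of 10 in replicate 3 (49.8%), which are shares near the background. The members with the same direction in all 3 replicates numbered 1 of 10, ARID1A, which was higher each time, against 25% of all genes tested, of which 13.1% were higher and 12% lower, and the members whose groups did not overlap numbered 0, against 2.12%. Replicate 1 went against both other replicates for 7 of the 10 members, all except EZH2, ARID1A and SETD2, beside 29.8% of all genes tested. This last count was taken after the values were seen. Replicate 2 did so for 2 members, EZH2 and SETD2 (23.6% of all genes), and replicate 3 for 0 (21.5%).

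The replicate number accounted for most of the variation in 8 of the 10 genes. Its share of the sum of squares of log2(scaled FPKM + 1) ran from 67.1% for KMT2D to 99.5% for ARID1A in these 8, with 44.2% for SETD2 and 21.6% for TET2. The median share was 85.1% for the members and 83.5% for all genes tested, and the share of the condition had medians of 1.36% and 2.96%. In TET2 the condition took 22.8% and in SETD2 23.4%, while the remainder, in which replicates respond differently, took 55.6% and 32.4%. Relative to replicates 2 and 3, replicate 1 was lower for 8 of the 10 members, by a log2 difference of -1.19 in MEF2B, -0.86 in SMARCA4 and -0.50 in EP300, and higher for EZH2 (0.48) and SETD2 (0.20). The median of this difference was -0.33 over the members and -0.11 over all genes tested. This difference depends on the scaling factors, which were 0.727 and 0.726 in replicate 1 and 1.14 to 1.20 in the others. In the deposited FPKM, replicate 1 of SETD2 was the lowest in both groups, at 9.16 in ROCK2 KD and 13.6 in Scr. EZH2 stood there at 42.2, 63.6 and 43.5 in ROCK2 KD replicates 1, 2 and 3 and at 48.1, 57.4 and 45.6 in Scr.

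The longest coding transcripts of the members had medians of 8687 bases and 52.8% GC, beside 3456.5 bases and 47.6% over the 91.8% of tested genes that were matched to an annotation. Of the members, 6 lay above the median GC of these genes and 4 below it. Base composition moved with the comparison in replicate 2. The 9662 matched genes were split into 5 bins of nearly equal size by GC. In the bin with the highest GC, from 57.4% to 72.2%, which holds KMT2D, ARID1A, MEF2B and SMARCA4, the median log2 difference was 0.034 in replicate 1, -0.20 in replicate 2 and -0.041 in replicate 3. In the bin that holds TET2 and SETD2, from 40.3% to 44.9%, it was 0.0025, 0.067 and 0.023. The 4 members of the bin with the highest GC differed in replicate 2, with log2 differences of -0.53 for MEF2B (66.3% GC), -0.07 for SMARCA4 (61.0%), -0.26 for KMT2D (59.7%) and 0.015 for ARID1A (57.5%). When the differences were corrected for length and GC, with the replicate block kept, the log2 fold changes of MEF2B, SMARCA4 and CREBBP became 0.036, 0.069 and 0.014, and 7 of the 10 members were above 0 and 3 below. The part of base composition in the values of single members was not tested.

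**Figure D3:**
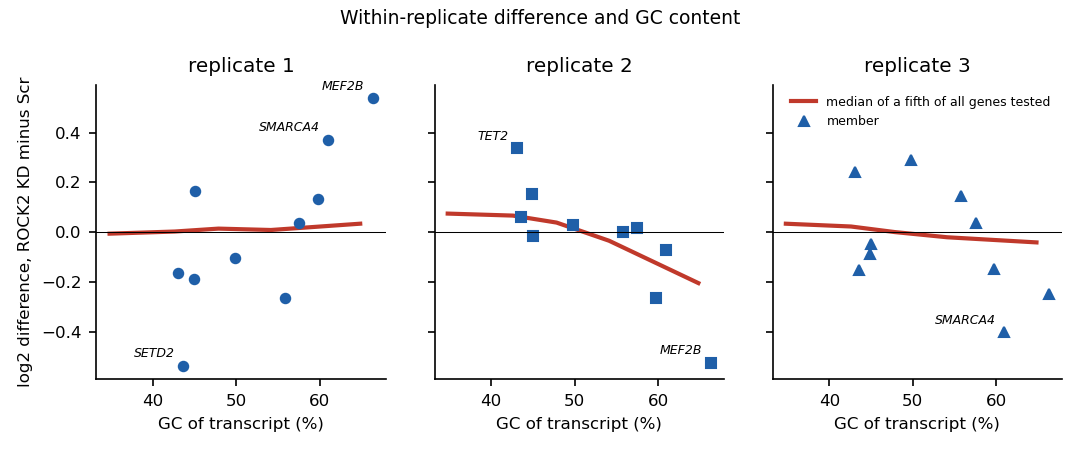
Log2 difference between ROCK2 KD and Scr in replicates 1, 2 and 3 against the GC content of the longest transcript, a coding one where the gene has one, for the 10 members (blue) and as the median of each of 5 bins of the 9662 tested genes with a GC value (red line). In replicate 2 the red line falls to -0.20 at high GC, and MEF2B lies at -0.53.

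Of the members, all except SETD2 were set against a close relative, in 7 pairs, and the ratio within such a pair cancels the scaling of a library, apart from the pseudocount. In Scr libraries EZH2 exceeded EZH1, the PRC2 subunit of resting cells, by a log2 ratio of 2.73 ± 0.0826 (SD, n = 3), and MEF2B exceeded MEF2C, another MEF2 factor of B-cells, by 2.77 ± 0.175. ARID1A exceeded ARID1B by 1.68 ± 0.0905 and SMARCA4 exceeded the alternative ATPase SMARCA2 by 0.94 ± 0.696, with the ratio at 0.16 in Scr replicate 1 and above 1 in the others. TET2 and TET3 were level at 0.014 ± 0.127, while CREBBP lay below EP300 at -0.96 ± 0.130 and KMT2D below KMT2C at -0.15 ± 0.0896 (SD, n = 3 for each).

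Within these pairs, of the 7 ratios, 2 had the same direction in every replicate: KMT2D to KMT2C was lower by log2 differences of -0.03, -0.25 and -0.10, and CREBBP to EP300 by -0.16, -0.03 and -0.14. For each of these 2, the exact two-sided sign-flip permutation test gave p = 0.25, the smallest value that 3 pairs allow, and p = 0.875 after Benjamini-Hochberg adjustment over the 7 ratios. With 3 pairs this test cannot reach 0.05 for any ratio, so it does not show whether the ratios differed. KMT2D and KMT2C have 59.7% and 45.0% GC, and CREBBP and EP300 have 55.8% and 49.8%. Corrected for length and GC, the log2 fold changes of these genes were -0.027, 0.015, 0.014 and 0.082, against -0.092, 0.033, -0.039 and 0.071 uncorrected. The ratios were not recomputed after this correction, and the part of base composition in them was not tested. The largest mean difference, -0.31 for MEF2B to MEF2C, came with log2 differences of 0.0086, -0.84 and -0.11, and its SD of 0.459 exceeded it. Without replicate 2 it was -0.051.

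**Figure D4:**
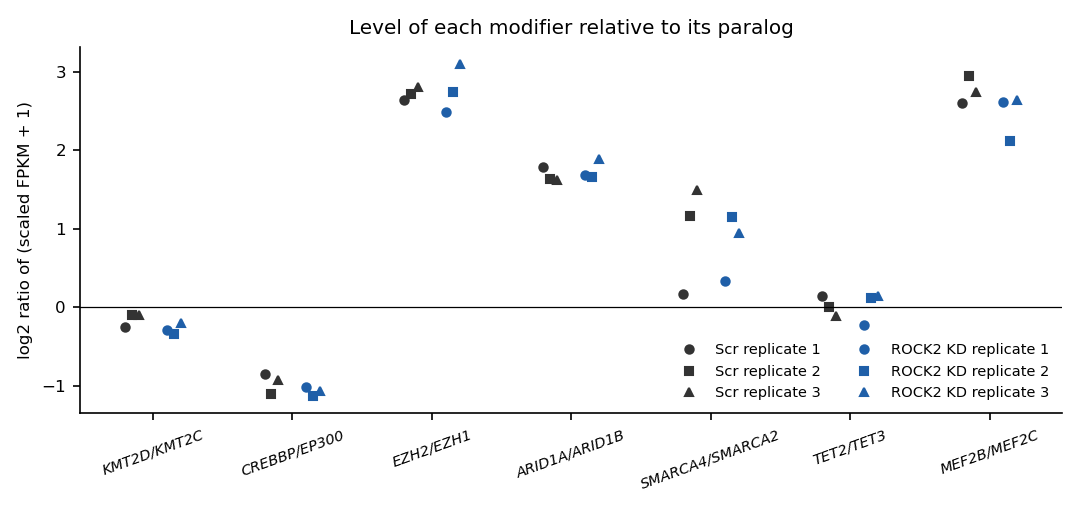
Log2 ratio of (scaled FPKM + 1) between each gene and its paralog in each of 6 libraries, with symbols for replicate numbers and colors for Scr (dark) and ROCK2 KD (blue). EZH2 and MEF2B stand above their paralogs in every library, CREBBP and KMT2D below theirs, and group means differ by at most 0.31.

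Of 102 genes in 9 lists of complexes and opposing enzymes, 99 were tested, and 0 passed the adjusted threshold. The unadjusted one was passed by 3 (3.03%, against 5.47% of all genes tested). In ROCK2 KD 52 were higher and 47 lower (median log2 fold change 0.0078), and 20 of the 99 (20.2%, against 25% of all genes) had the same direction in all 3 replicates. SMARCD3, TET1 and HDAC4 were under the filter, with FPKM of at most 0.993, 0.223 and 0.571.

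By complex, the subunits of the MLL3/MLL4 COMPASS complex around KMT2D and KMT2C were split, 5 of 8 higher, with ASH2L at a log2 fold change of 0.12 and PAGR1 at -0.18. The next list held other writers and erasers of H3 lysine 4 methylation and cofactors of the writers. Of these, 3 of 11 were higher and 8 lower (median -0.08), with 0 of the 11 past the adjusted threshold. In all 3 replicates 5 of them were lower, against 12% of all genes tested. These 5, KMT2B, SETD1A, HCFC1, MEN1 and KDM5C, have 54.9% to 63.5% GC, in the 2 bins of highest GC, whose median log2 fold changes were -0.022 and -0.075, and the part of base composition was not tested. HCFC1, a cofactor of the SET1 and MLL complexes, was at a log2 fold change of -0.26 (standard error 0.10, unadjusted p = 0.0331, adjusted p = 0.880). Of the other acetyltransferases and coactivators 3 of 8 were higher, with NCOA3 at 0.30 (standard error 0.12, unadjusted p = 0.0383) and the SAGA enzyme KAT2A at -0.27 (standard error 0.12, unadjusted p = 0.0565). Deacetylases and corepressors, which oppose CREBBP and EP300, were higher in 9 of 12 (median 0.07), with TBL1XR1, an NCOR subunit, at 0.19 (standard error 0.10, unadjusted p = 0.104).

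PRC2 subunits and the H3 lysine 27 demethylase gave 6 of 11 higher (median log2 fold change 0.0057) and no gene of 1 direction in all 3 replicates, and the SWI/SNF subunits 10 of 21 (median -0.0018) with PBRM1, a subunit of the PBAF form, at 0.10. In the list for H3 lysine 36 methylation 7 of 12 were higher (median 0.033), led by the demethylase KDM4C at 0.14. The MEF2 family and class IIa deacetylases gave 3 of 7 higher (median -0.08), with MEF2A at 0.23 and MEF2D at -0.21. In the list for DNA methylation and oxidation 6 of 9 were higher (median 0.14).

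DNMT3A, a de novo DNA methyltransferase, had the lowest unadjusted p of the 99 partner genes. It was low, at a scaled FPKM of 1.99, 2.07 and 2.26 in ROCK2 KD replicates 1, 2 and 3 and of 1.29, 1.62 and 1.59 in Scr, so that the groups did not overlap. Its log2 fold change was 0.32 (standard error 0.11, unadjusted p = 0.0264, adjusted p = 0.874). The partner genes whose groups did not overlap were 3 of 99, MEN1, KAT2A and DNMT3A, where 2.12% of all genes did not. DNMT3A and HCFC1 passed an adjusted p of 0.05 only when ComBat on the replicate number was followed by limma with no replicate block, a setting under which 300 genes (2.85%) were called.

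**Figure D5:**
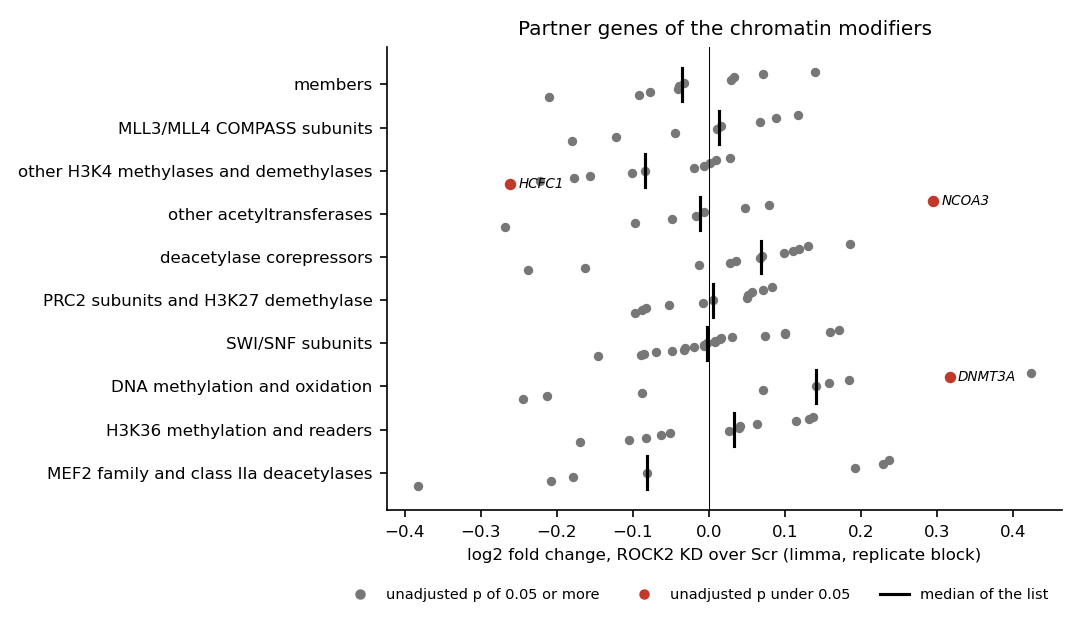
Log2 fold change (ROCK2 KD over Scr,) of each tested gene of the 10 members and of 9 partner lists, with the median of each list as a bar. The 3 genes with an unadjusted p under 0.05, HCFC1, NCOA3 and DNMT3A, are named in red, and list medians lie between -0.08 and 0.14.

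As for the libraries as a whole, the deposited FPKM summed to 208289 to 217309 in replicate 1 and to 438262 to 480612 in replicates 2 and 3. FPKM do not state the reads behind a value. Depth relative to Scr replicate 3, estimated from the spacing of low values, was 71.4% to 92.8%. Of 6 B-cell markers 5 had an FPKM of at least 1 in every library. Of 10 markers of other cell types 9 were under 1 in every library, and EPCAM was at 2.59 to 5.00. The summed FPKM of the B-cell markers ranged from 447 to 1475 in ROCK2 KD and from 316 to 1507 in Scr, with replicate 1 the lowest in both groups, those of the other markers from 3.72 to 5.88 and from 3.29 to 5.28, and their part in the values of the members was not tested. In bulk RNA, fewer cells of a kind and less RNA per cell cannot be told apart.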

How the data were processed

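U2932 cells with a ROCK2 or a scrambled shRNA were profiled by RNA-seq, with 3 libraries in each group. The authors made Nextera libraries, aligned paired reads to hg19 with STAR and deposited FPKM from Cufflinks, 1 value for each of 20667 gene symbols in each library, with replicates kept apart. The gene annotation they used is not given in the sources used here. The authors corrected a replicate-based batch effect with ComBat and tested counts with limma, whereas FPKM hold no counts.

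Scaling factors were trimmed means of log ratios between libraries (trims of 0.3 on ratios and 0.05 on levels). Genes were kept if 3 or more libraries had FPKM of 1 or more. Then log2(scaled FPKM + 1) was fitted in limma 3.58.1 (R 4.3.3) on condition, blocked by replicate number, with a trend of variance on level and p values adjusted by Benjamini and Hochberg's method over all genes tested (threshold 0.05). All tests were two-sided. The numbers pair the libraries: the labels give both groups the same numbers, the study corrected a replicate-based batch, and deviations from the group means correlated within a number at r = 0.851, 0.784 and 0.739 (over genes, which are no independent replicates). The fit was tested on simulated data with independent noise. Its planted changes were larger than those of the members, so it does not show the power for changes of their size. Tables and plots were made in Python 3.11.15 with pandas 2.3.3, numpy 2.4.6 and matplotlib 3.10.9. Positions, transcript lengths and GC content come from GENCODE 44 on GRCh37, the coordinate system of hg19, using the longest transcript of a gene, a coding one where the gene has one.

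The genes named are the members, ROCK2, the paralogs, and in each partner list the largest rise and fall among genes of 1 direction in all 3 replicates. MEN1, KMT2B, SETD1A, KDM5C and the genes under the filter were named after their values were seen. The members and lists were chosen with earlier results of these data known. Alternatives covered the block, ComBat, pseudocount, filter, scaling, trend, length and GC, and each replicate left out.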

Additional observations from a re-analysis of the deposited data

How the results depend on the processing

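The members called stayed at 0 under all 13 alternatives tried, where the lowest adjusted p of any member was 0.353, for SETD2 after ComBat. Leaving out the replicate block changed no call: 0 genes, 0 members and 0 partner genes passed the adjusted threshold, and genes at an unadjusted p under 0.05 went from 576 to 29. ComBat on the replicate number (parametric, condition not in its model) with no replicate block called 300 genes, 166 higher and 134 lower in ROCK2 KD, and 2 partner genes, HCFC1 and DNMT3A. The cause was not tested. Leaving out each replicate called between 0 and 4 genes. The median log2 fold change of the members, -0.036, became 0.025 after correction for length and GC and ranged from -0.0046 to 0.014 with each replicate left out.

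Signs of members near 0 were not stable, and the cause was not tested. After correction for length and GC, CREBBP went to 0.014, MEF2B to 0.036 and SMARCA4 to 0.069. With each replicate left out, log2 fold changes ranged from -0.033 to 0.075 for KMT2C, -0.13 to 0.074 for CREBBP, -0.037 to 0.16 for EP300, -0.14 to 0.032 for EZH2, -0.39 to 0.15 for MEF2B and -0.24 to 0.15 for SMARCA4. KMT2D, ARID1A, TET2 and SETD2 kept their sign under all 13 alternatives, but their sizes moved, from -0.21 without replicate 1 to -0.0071 without replicate 2 for KMT2D, from 0.040 without replicate 2 to 0.29 without replicate 1 for TET2 and from -0.35 without replicate 2 to -0.047 without replicate 1 for SETD2, and ARID1A went to 0.10 after correction for length and GC. ARID1A remained the 1 member with a single direction under the 3 other scalings. With each replicate left out, 4 paralog differences changed sign, ranging from -0.063 to 0.16 for EZH2 to EZH1, -0.043 to 0.14 for ARID1A to ARID1B, -0.29 to 0.076 for SMARCA4 to SMARCA2 and -0.13 to 0.18 for TET2 to TET3. The other 3 kept theirs, at -0.17 to -0.065 for KMT2D to KMT2C, -0.15 to -0.086 for CREBBP to EP300 and -0.48 to -0.051 for MEF2B to MEF2C. ROCK2 ranged from -1.04 to -0.45 with each replicate left out and was at -1.06 with a pseudocount of 0.1. The number of reads behind each value is unknown.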
